A study of Mus musculus with 2 samples.

Results

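The Id genes and 6 further direct targets of Smad transcription factors were followed in bEnd3 cells, a mouse line of transformed brain microvessel endothelium. The 10 genes, Id1, Id2, Id3, Id4, Skil, Tgif1, Bambi, Pmepa1, Klf10 and Atoh8, were taken by name from the 18193 genes that had a probe set of their own on an Affymetrix mouse array. They were represented by 17 of 34945 such probe sets. The cells were of the BALB/c strain, expressed polyoma middle T antigen and grew in medium with 15% FCS. Cells of the Smad4-siRNA group had received an siRNA against Smad4 by retrovirus, and cells of the Control-siRNA group a control siRNA in the same way. Both groups were selected with puromycin, and no added ligand is named in the labels. RNA from 2 infections was pooled for 1 array per group. There were thus no replicates, no test between the groups was possible, and precision is limited by the number of arrays.

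Smad proteins carry signals of the TGF-β and BMP ligands to the nucleus, where the receptor-activated Smads bind DNA together with their common partner Smad4. BMP signals, which endothelium receives mainly through Smad1 and Smad5, induce the Id genes and Atoh8. TGF-β signals, carried by Smad2 and Smad3, induce Skil, Tgif1, Pmepa1 and Klf10, and several of these products feed back on the pathway. The comparison asks which of these transcripts differ where Smad4 was targeted.

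The label was not matched by the targeted transcript, and the arrays differed in far more than Smad target genes. Signals are MAS5 values, brought to the same distribution on both arrays by quantile normalization, and log2 ratios are the Smad4-siRNA label minus the control. Smad4 itself had a signal of 1165 on the Smad4-siRNA-labelled array and 917 on the Control-siRNA array in its brightest probe set, and after normalization the log2 ratios of its 3 probe sets were all above 0 (0.25 to 0.58). As deposited, the brightest had a log2 ratio of -0.07. Of 17 measured endothelial markers, 16 were lower by at least 2-fold on the Smad4-siRNA-labelled array, where 9 of them lay below the detection floor. Of 9 measured fibroblast markers, 7 were at least 2-fold higher, and 7 reached the floor only on the Smad4-siRNA-labelled array. Xist, an RNA of the inactive X chromosome, had a signal of 4495 on the Smad4-siRNA-labelled array in its brightest probe set, against 20.7 on the Control-siRNA array. The Y-linked Eif2s3y had 0.349 on the Smad4-siRNA-labelled array, against 324 on the Control-siRNA array. Kdm5d and Uty, also Y-linked, had 4.69 and 4.03 on the Smad4-siRNA-labelled array in their brightest probe sets, against 122 and 112 on the Control-siRNA array. For this reason "higher" and "lower" below mean higher or lower on the Smad4-siRNA-labelled array, and no response to loss of Smad4 is meant.

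Promoter sequence was at hand for 5 of the 10 genes, in windows of 250 bases before and 50 after a RefSeq start site. The windows of Id3, Id2 and Tgif1 are given because of their ratios. Among those of the 10 genes that were measured on both arrays, Id3 had the highest ratio and Tgif1 the lowest. Id2 had the opposite sign to Id3. The windows come from RefSeq, build GRCm38.p6, 5′ to 3′ on the strand of the gene. Capitals mark GTCT or its reverse complement AGAC, the core letters that the DNA-binding domain of Smad3 and Smad4 contacts, and the GC-rich GGCGCC known from BMP-responsive elements. Id3 lies on the plus strand at chr4:136143572-136143871, Id2 on the minus strand at chr12:25096043-25096342, and the outermost of 5 Tgif1 windows on the minus strand at chr17:70853483-70853782.
Id3: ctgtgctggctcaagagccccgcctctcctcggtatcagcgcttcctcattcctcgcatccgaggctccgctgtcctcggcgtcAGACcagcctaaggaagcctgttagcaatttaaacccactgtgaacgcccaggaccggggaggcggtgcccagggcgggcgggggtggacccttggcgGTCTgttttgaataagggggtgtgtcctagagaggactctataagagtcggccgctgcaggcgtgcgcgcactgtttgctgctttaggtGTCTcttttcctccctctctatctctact
Id2: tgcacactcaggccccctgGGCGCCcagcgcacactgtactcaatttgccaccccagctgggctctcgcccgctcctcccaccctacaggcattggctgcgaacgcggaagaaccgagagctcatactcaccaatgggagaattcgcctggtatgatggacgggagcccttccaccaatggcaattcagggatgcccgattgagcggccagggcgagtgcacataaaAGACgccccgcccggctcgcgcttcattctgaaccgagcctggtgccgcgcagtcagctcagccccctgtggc
Tgif1: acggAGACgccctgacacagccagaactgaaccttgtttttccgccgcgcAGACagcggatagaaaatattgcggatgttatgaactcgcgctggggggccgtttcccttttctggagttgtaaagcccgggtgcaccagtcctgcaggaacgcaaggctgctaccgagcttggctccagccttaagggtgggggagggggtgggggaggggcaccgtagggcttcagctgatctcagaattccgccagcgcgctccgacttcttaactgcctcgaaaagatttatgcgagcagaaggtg
The Id3 window held 3 copies of GTCT or AGAC and none of GGCGCC. The Id2 window held 1 of each. The Tgif1 window held 2 copies of GTCT or AGAC, of which 1 lies within CAGACA, and its other 4 windows held from 0 to 4 copies. The Id4 window held 1 GGCGCC and no GTCT, and the Atoh8 window neither. Among all 32851 windows, 88.0% held GTCT or AGAC, 11.9% GGCGCC and 21.0% CAGACA, searched on both strands. The palindrome GTCTAGAC was in none of the 9 windows of these genes and in 0.213% of all windows. These letters only describe the windows.

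Among the 10 genes, Id1, Id3 and Atoh8 were at least 2-fold higher, Tgif1 and Bambi were at least 2-fold lower, and Id2, Skil, Pmepa1 and Klf10 lay between. Id4 was not measured by the rule used. Id1, Id3, Atoh8, Tgif1, Bambi and Klf10 each had only 1 probe set. No call past 2-fold could therefore be compared with a second probe set of the same gene. A gene was read from its brightest probe set, and a signal counted as measured at or above the floor, the median of the array, 22.8. The 3 higher genes of 9 measured compare with 16.0% of 11581 measured genes at least 2-fold higher, and the 2 lower genes with 15.8% at least 2-fold lower. The median log2 ratio of the 9 was 0.47, against -0.14 over all measured genes. That 0.47 is the value of the brighter probe set of Skil, whose 2 probe sets disagreed in sign. When a gene was read as the median of its probe sets, the medians were -0.16 for the 9 and -0.17 over all. The numbers are small, and with 1 array per group the counts describe these arrays only.

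**Figure D1:**
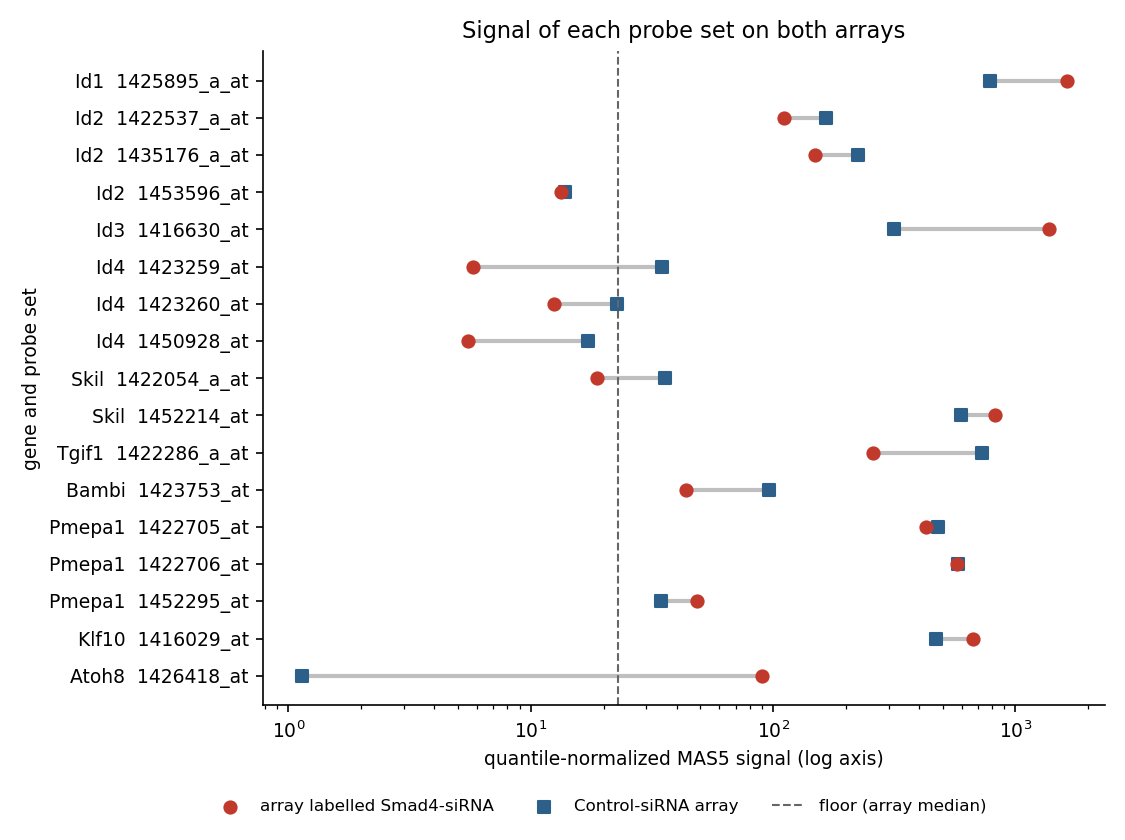
Quantile-normalized MAS5 signal (log axis) of each of the 17 probe sets on the Smad4-siRNA-labelled array (circles) and the Control-siRNA array (squares), with the floor of 22.8 as a dashed line. Id1, Id3 and Atoh8 lie to the right on the Smad4-siRNA-labelled array, Tgif1 and Bambi on the Control-siRNA array.

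Id proteins are helix-loop-helix factors without a DNA-binding region. They pair with E proteins and other basic helix-loop-helix factors, keep them off DNA, and are among the most direct BMP targets in endothelium. Id3 had a signal of 1379 on the Smad4-siRNA-labelled array, against 315 on the Control-siRNA array. It was 4.38-fold higher (log2 ratio 2.13), and 96.5% of the 9479 genes measured on both arrays had a lower ratio. Id1 had a signal of 1624 on the Smad4-siRNA-labelled array, against 784 on the Control-siRNA array. It was 2.07-fold higher (log2 ratio 1.05), just past the 2-fold mark, and its log2 ratio was 0.69 for the values as deposited.

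Id2 was on the other side of 0. It had a signal of 149 on the Smad4-siRNA-labelled array, against 224 on the Control-siRNA array, which is 1.5-fold lower (log2 ratio -0.59). Its second measured probe set gave 111 on the Smad4-siRNA-labelled array, against 165 on the Control-siRNA array. With its log2 ratio of -0.57, these probe sets agreed within an SD of 0.0105 (n = 2). The remaining Id2 probe set was below the floor on both arrays.

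The 3 probe sets of Id4 had signals of 5.76, 12.4 and 5.53 on the Smad4-siRNA-labelled array, each under the floor. The Control-siRNA array gave 34.9, 22.7 and 17.3, of which only the first reached the floor and the next missed it narrowly. The first is thus at least 1.53-fold lower. The probe set with the highest mean log2 signal, that with 12.4 and 22.7, was below the floor on both arrays. Neither a fold nor a direction is therefore given for the gene.

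The ratios of the Id genes also differed from each other. The log2 ratio of Id3 exceeded that of Id2 by 2.72, and that of Id1 exceeded Id2 by 1.64. Such differences between genes do not move with a constant scaling factor, and they were 2.58 and 1.47 for the values as deposited. As a technical error, the spread among probe sets of the same gene was pooled over 4546 genes and gave an SD of 0.47 on the log2 scale, or 0.67 for a difference between genes. The differences are 4.09 and 2.46 times that SD. Id3 exceeded Id1 by 1.08, which is 1.62 times it. The SD covers probe sets of the same gene on the same arrays, not arrays, cultures or the spread between genes. By quartile of signal, from 21.0% to 32.7% of genes measured on both arrays differed at least 2-fold.

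Atoh8 is a basic helix-loop-helix factor that BMP signals through the receptor ALK1 induce in endothelial cells. Its only probe set had a signal of 89.9 on the Smad4-siRNA-labelled array and 1.13 on the Control-siRNA array, which is far under the floor. It was at least 3.94-fold higher against the floor, and its log2 bound was 4.0 when the floor was lowered to the 25th percentile of signals. A floor raised to the 75th percentile, 127, left it unmeasured on both arrays.

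Of the transcriptional corepressors, Tgif1 was at least 2-fold lower and Skil had no settled direction. Tgif1, a homeodomain protein that recruits histone deacetylases to Smad2 and Smad3, had a signal of 258 on the Smad4-siRNA-labelled array, against 729 on the Control-siRNA array. It was 2.83-fold lower (log2 ratio -1.5), and 93.7% of genes measured on both arrays had a higher ratio. Skil encodes SnoN, which binds Smad complexes, blocks their activity and is rapidly re-induced by TGF-β. Its brighter probe set had a signal of 826 on the Smad4-siRNA-labelled array, against 595 on the Control-siRNA array (log2 ratio 0.47). Its dimmer one had 18.7 on the Smad4-siRNA-labelled array, under the floor, against 35.7 on the Control-siRNA array, and was at least 1.57-fold lower. The probe sets of Skil thus disagreed in sign, and no direction is given for the gene. The brighter probe set of Skil and that of Tgif1 differed by 1.97 in log2 ratio, 2.97 times the SD of such a difference.

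Of the membrane inhibitors, Bambi was at least 2-fold lower and Pmepa1 lay near 0. Bambi, a pseudoreceptor that resembles a type I receptor but lacks its kinase, had a signal of 43.9 on the Smad4-siRNA-labelled array, against 96.2 on the Control-siRNA array. It was 2.19-fold lower (log2 ratio -1.13). It was in the dimmest quartile of genes, where the SD between probe sets was 0.51 and 30.4% of genes differed at least 2-fold in either direction. Pmepa1 encodes a membrane protein that binds receptor-activated Smads and holds them away from the receptor. Its brightest probe set had a signal of 575 on the Smad4-siRNA-labelled array, against 578 on the Control-siRNA array. Its log2 ratio was -0.01. The others had log2 ratios of -0.16 and 0.49 (SD 0.34, n = 3), which spans 0.

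Klf10, a zinc finger factor first described as a TGF-β-inducible early gene, had a signal of 670 on the Smad4-siRNA-labelled array, against 468 on the Control-siRNA array. It was 1.43-fold higher (log2 ratio 0.52), which is 1.10 times the pooled SD between probe sets. Id1, Id3, Skil, Pmepa1 and Klf10 were in the brightest quartile of genes. There the SD between probe sets was 0.43 and 21.0% of genes differed at least 2-fold.

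**Figure D2:**
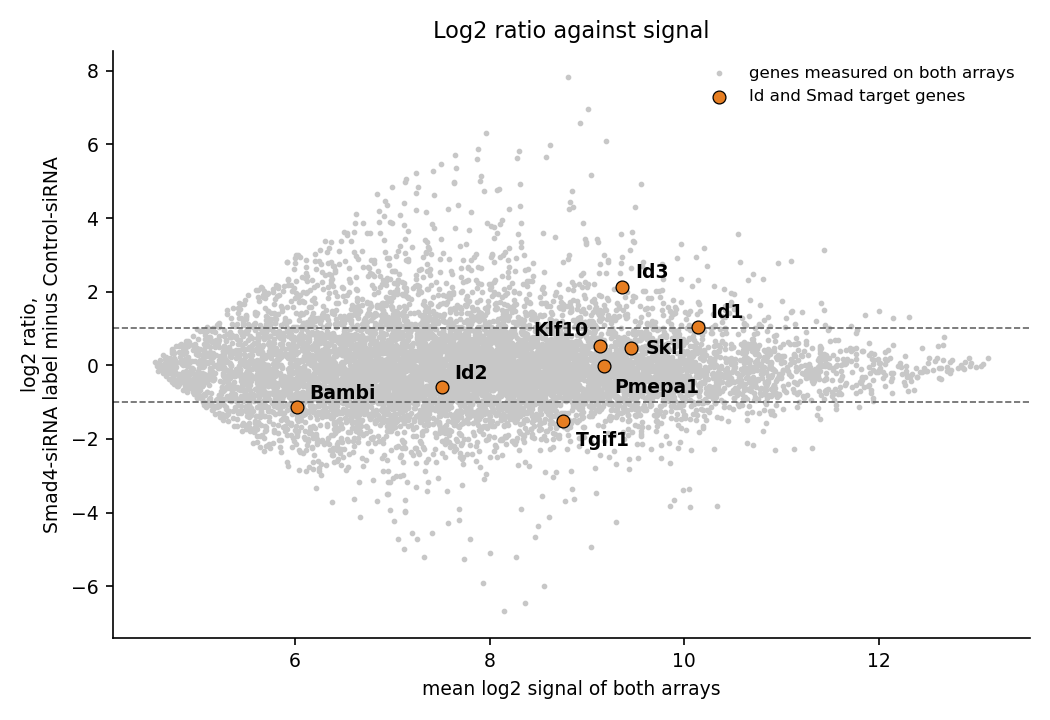
Log2 ratio of the Smad4-siRNA-labelled array to the Control-siRNA array against mean log2 signal, for the 9479 genes measured on both arrays (grey) and the 8 Id and Smad target genes among them (orange). Dashed lines mark 2-fold, which Id3, Id1, Tgif1 and Bambi pass.

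Scaling decided the call of Id1 and Bambi but of no other gene. Id1 had a log2 ratio of 0.69 as deposited and of 0.96 after scaling to equal trimmed means, below the 2-fold mark, and of 1.01 after centring on the median and 1.12 after removal of a lowess trend. Bambi had -1.05 as deposited and -1.01 with the lowess trend removed, but -0.72 after centring and -0.77 with equal trimmed means. Id3, Tgif1 and the bound of Atoh8 stayed past 2-fold under all 5 scalings, with ranges of 1.79 to 2.25 for Id3 and -1.82 to -1.38 for Tgif1. The sign of Pmepa1 turned, with -0.38 as deposited and 0.08 after removal of the lowess trend. The brighter probe set of Skil and Klf10 had log2 ratios of 0.09 and 0.15 as deposited.

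The counts of higher and lower members, and the shares over all genes, differed between scalings. They were 2 and 2 as deposited, where 15.2% of all measured genes were higher and 19.8% lower. They were 3 and 1 after centring, where the shares were 20.6% and 12.2%, and 2 and 1 with equal trimmed means, where they were 19.6% and 13.4%. With the lowess trend removed they were 3 and 2, as in the quantile-normalized values, while the shares were 17.7% and 13.3%. The median over all measured genes was -0.30 as deposited, against a median of 0.09 for the 9 genes, which is again the value of the brighter Skil probe set.

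**Figure D3:**
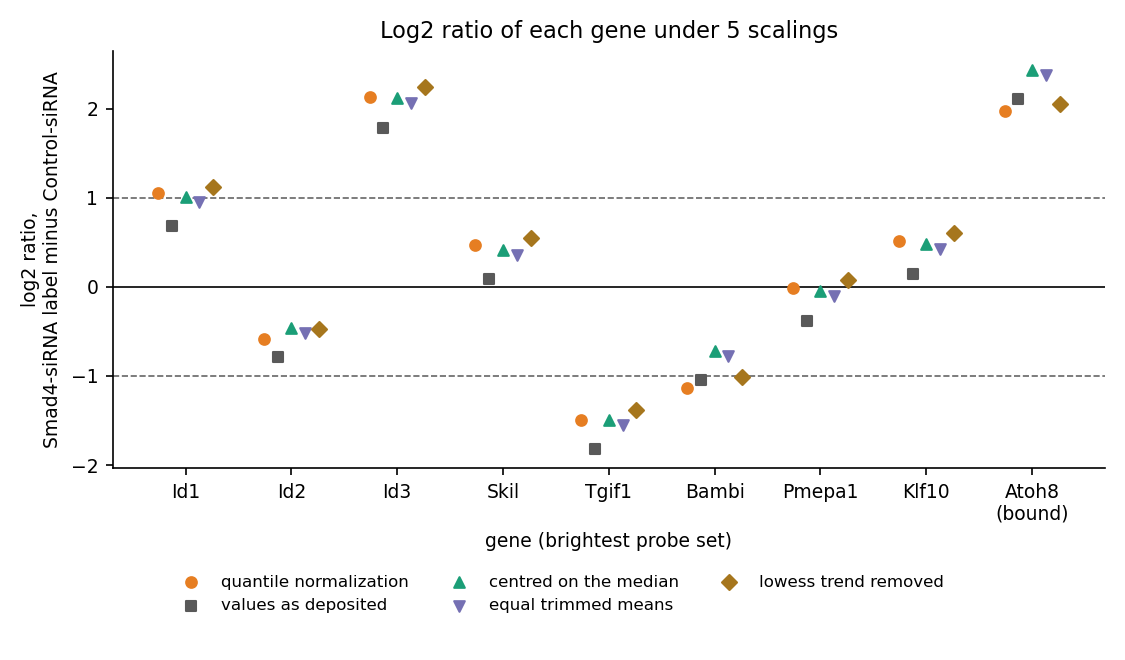
Log2 ratio of the Smad4-siRNA-labelled array to the Control-siRNA array for the 9 measured genes under 5 scalings, with dashed lines at 2-fold and Atoh8 as a bound. Id1 and Bambi cross the 2-fold lines between scalings, and the values as deposited lie lowest for Id1, Id2, Id3, Skil, Tgif1, Pmepa1 and Klf10.

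Of 26 other measured genes known to respond to Smad signalling, 9 were at least 2-fold higher, 5 at least 2-fold lower and 12 between, with a median log2 ratio of 0.52. These are 34.6% and 19.2% of the list, against 16.0% and 15.8% of all measured genes. The number of lower genes was 1 after centring, with equal trimmed means or with the raised floor, and 2 with the lowess trend removed or with a pseudocount. The inhibitory Smad genes, which are BMP and TGF-β feedback targets, were both higher. Smad6 had signals of 259 on the Smad4-siRNA-labelled array and 65.1 on the Control-siRNA array (3.98-fold). Smad7 had 198 on the Smad4-siRNA-labelled array and 94.8 on the Control-siRNA array (2.09-fold) in its brighter probe set, but a log2 ratio of 0.95 as deposited. The log2 ratio of its dimmer probe set was 0.71. Among genes measured on both arrays, the AP-1 subunit gene Junb (6.34-fold higher) and the transcriptional repressor gene Snai1 (4.76-fold higher) were farthest from 0.

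Tgfbi, a secreted matrix protein gene, was at least 159-fold higher, while Cdkn2b, which encodes a Cdk inhibitor, was at least 42.7-fold lower. Ccn2, a matricellular TGF-β target, had a log2 ratio of 0.43, and 0.15 as deposited. Hey1, a Notch and BMP target, was at least 2.14-fold lower.

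Upstream of the targets, 21 genes of ligands, receptors and Smads were measured, of which 5 were higher, 4 lower and 12 between, with a median log2 ratio of 0.35. These are 23.8% and 19.0% of the list, against 16.0% and 15.8% of all measured genes. The BMP receptor gene Bmpr1a had signals of 772 on the Smad4-siRNA-labelled array and 30.0 on the Control-siRNA array (25.7-fold higher). The co-receptor gene Tgfbr3 was 19.1-fold higher, and the ligand gene Tgfb1 5.35-fold lower. As deposited, the log2 ratios were 4.62 for Bmpr1a, 4.08 for Tgfbr3 and -2.60 for Tgfb1. Tgfb3 and Bmp6, further ligands, were at least 11.5-fold and 2.60-fold higher.

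Of 15 measured partners of Id proteins, 2 were higher, 3 lower and 10 between, with a median of -0.43 (-0.15 with sides below the floor set to it). For comparison, 16.0% of all measured genes were higher and 15.8% lower. The E protein gene Tcf4 was lower in its 5 measured probe sets, with log2 ratios from -1.69 to -0.65 and 468 on the Smad4-siRNA-labelled array against 861 on the Control-siRNA array in the brightest. The E protein gene Tcf3 had log2 ratios of 0.36 to 0.94 in its 3 probe sets. Tcf12, which encodes another E protein, had -0.10 in its brightest probe set and log2 ratios from 0.01 to 0.40 in its other 3 measured ones, of which the lowest was -0.34 as deposited.

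Twist1, a mesenchymal factor, was at least 33.6-fold higher and Tal1, a factor of blood and endothelial cells, at least 14.2-fold lower. Ets1, an Ets factor of endothelium, was 2.70-fold lower and Elk1 had a log2 ratio of -0.43. All 3 E protein genes were among the 8 partners measured on both arrays.

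The partners of the corepressors and the nearest relatives of the 10 genes mostly lay within 2-fold. Ski and Tgif2 are on both of these lists, and Ski is also among the other Smad-responsive genes. Of 14 corepressor partners, 2 were higher, 0 lower and 12 between, with the deacetylase genes Hdac5 2.27-fold and Hdac1 2.02-fold higher. As deposited, 0 were higher and 2 lower, so no direction is given for these partners. Of all measured genes, 16.0% were higher and 15.8% lower. Rnf111, whose product marks SnoN for degradation, had a log2 ratio of -0.93, and Dach1 reached the floor only on the Control-siRNA array, with a bound under 2-fold. Of 12 relatives measured, 1 was higher, 1 lower and 10 between. Tgif2 had a log2 ratio of 0.22 beside -1.5 for Tgif1, Ski of 0.09 beside 0.47 for the brighter Skil probe set, and Klf11 of 1.28 (2.42-fold higher) beside 0.52 for Klf10. Klf2, a flow-induced factor of endothelium, was 8.25-fold lower, and Klf5 had a log2 ratio of 0.91. Ldlrad4, a relative of Pmepa1, was below the floor on both arrays.

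**Figure D4:**
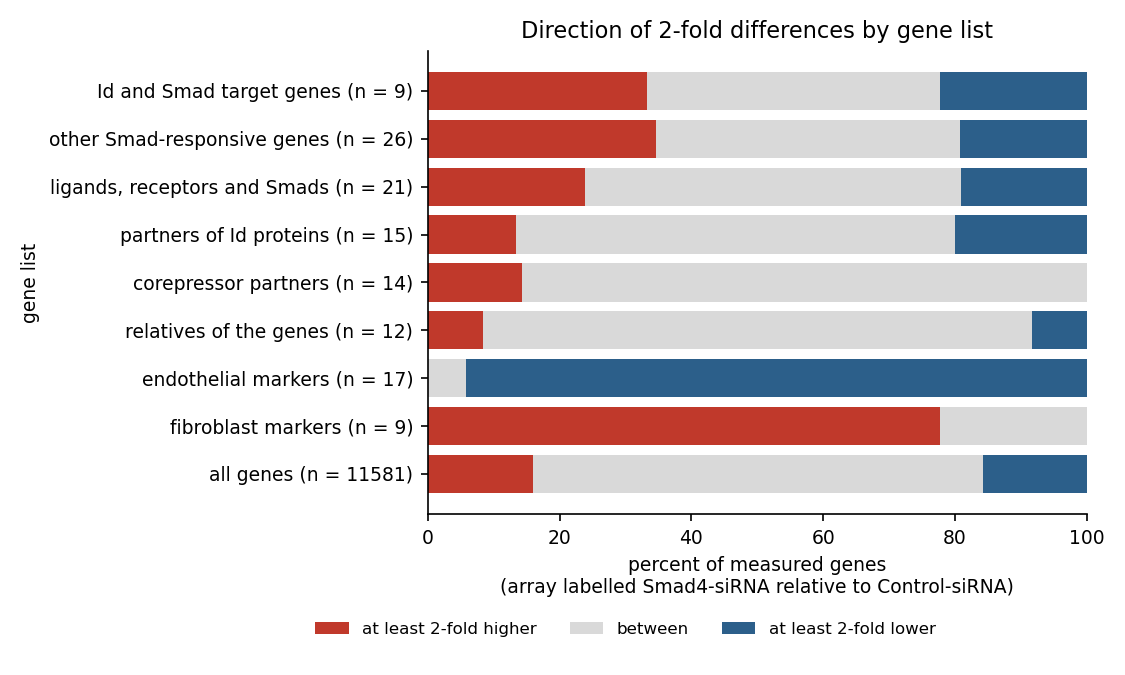
Percent of measured genes of each list that were at least 2-fold higher, between, or at least 2-fold lower on the Smad4-siRNA-labelled array relative to the Control-siRNA array. The Id and Smad target genes hold both directions, as all genes do, whereas 16 of 17 endothelial markers are lower and 7 of 9 fibroblast markers higher. Some lists share genes, such as Ski and Tgif2.

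Endothelial and fibroblast markers differed between the arrays far more than the Id and Smad target genes. Their median log2 ratios were -5.65 for endothelial and 7.24 for fibroblast markers (-4.94 and 5.18 with sides below the floor set to it). Only 2 of 5 epithelial markers (1 higher, 1 between) and 2 of 5 leukocyte markers (1 lower, 1 between) were measured. The 18 endothelial markers had a summed signal of 1086 on the Smad4-siRNA-labelled array and 25320 on the Control-siRNA array, with Nos3, Ptprb and Cdh5 at 28.0, 34.4 and 44.2 on the Smad4-siRNA-labelled array. The 11 fibroblast markers had sums of 21190 on the Smad4-siRNA-labelled array and 991 on the Control-siRNA array, with Pdgfra 7.23-fold higher and S100a4 at a log2 ratio of 0.09. Of 11 pericyte and smooth muscle markers, 5 were below the floor on both arrays. Of the 6 measured, 5 were at least 2-fold higher, against 16.0% of all measured genes. Of these 6, 4 reached the floor only on the Smad4-siRNA-labelled array and 1 only on the Control-siRNA array. The sums over all 11 were 3225 on the Smad4-siRNA-labelled array and 107 on the Control-siRNA array. The part of these differences in the values of the Id and Smad target genes was not tested, and in RNA of whole cultures fewer cells of a type and less RNA per cell cannot be told apart. The signals of Xist and of the Y-linked Eif2s3y, Kdm5d and Uty also differed between the arrays. Whether both arrays came from the same cells was not tested, and with 1 array per group a difference in cells and the siRNA cannot be told apart.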

How the data were processed

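Biotin-labelled cRNA from total RNA of bEnd3 cells was hybridised to 1 Affymetrix array per siRNA group, and groups were taken from the sample titles, per the labels. The authors deposited a linear signal intensity for each probe set, which the submitters' processing notes credit to MAS5. Neither its version nor its scaling target or detection calls are stated there.

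After 64 control probe sets were set aside, 45037 probe sets were compared. Names came from the platform annotation, updated by Entrez identifier against RefSeq (GRCm38.p6), which matched 18032 of 18193 genes. The 2% trimmed means of the arrays, 115 and 138, differed by more than 5%, so log2 signals were quantile normalized (numpy 2.4.6). The floor was each array's median, and a gene was read from the probe set with the highest mean log2 signal. Where 1 side lay below the floor, the fold against the floor is given as "at least". Log2 ratios run Smad4-siRNA label minus Control-siRNA, and 1 array per group allowed no test.

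Members and lists were chosen with earlier results of these data known. Genes named are all members, Smad4 and related genes chosen by role, and of each list the 3 measured on both arrays farthest from 0 and the 2 largest bounds. Xist, Eif2s3y, Kdm5d, Uty and the motif GTCT were added after the values were seen. List genes with no probe set of their own in the annotation were not analysed here. Alternatives were other scalings (lowess fraction 0.3, statsmodels 0.14.6), floors, a pseudocount, the median over probe sets, leaving out suffixed probe sets and a 1.5-fold threshold. The calls were tested on simulated data, where quantile normalization narrowed large rises of the brightest genes, so large folds of bright genes may be understated.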

Additional observations from a re-analysis of the deposited data

How the results depend on the processing

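With 1 array per group, no alternative could leave out a replicate, and no paired analysis was possible because each group had 1 array. Of 76 log2 ratios of single members under the alternatives, 74 moved by less than the SD between probe sets and 0 of those past 2-fold turned their sign. The exceptions were Skil, at -0.23 as the median of its probe sets, and the bound of Atoh8, at 4.0 with a floor at the 25th percentile, where Id4 was also measured, with a log2 ratio of -0.87. The number of members at least 2-fold lower was 1 in place of 2 after centring on the median, with equal trimmed means, without suffixed probe sets, and when the floor was raised to the 75th percentile. Centring and trimmed means put Bambi within 2-fold, the higher floor left Bambi unmeasured, and Tgif1, like Id1 and both measured Id2 probe sets, has only suffixed probe sets. Their suffix, _a_at, marks probes shared by transcripts of the same gene. At a 1.5-fold threshold 3 were higher and 3 lower, where 24.2% and 28.4% of all measured genes were. The median of the members was -0.16 with the median over probe sets and 0.09 as deposited. The 45 medians of the 5 lists all moved by less than the SD, but 19 of 90 list counts moved by more than 1.5 times. Other Smad-responsive genes had 5 to 12 higher (9 in the setting reported) and 1 to 5 lower (5). Partners of Id proteins had 1 to 2 higher (2) and 2 to 5 lower (3), corepressor partners 0 to 2 each way (2 and 0, but 0 and 2 as deposited), and relatives 1 to 3 higher (1) and 1 to 2 lower (1). Smad4 ranged from -0.07 to 0.43. Signals under the floor left Id4 with no fold.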

Other observations

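Genes next to the 10 members on the chromosome were looked at after the values were seen, as 5 measured genes on each side in the RefSeq order (7 in all for Bambi, near a chromosome end). The neighbours of Id3 had a median log2 ratio of -0.15, beside 2.13 for Id3, and 1 of 10 was at least 2-fold higher. Those of Tgif1 had a median of 0.22, beside -1.5 for Tgif1, with 3 of 10 higher and 1 lower. Those of Id2 had a median of 1.01, beside -0.59 for Id2, and 5 of 10 were at least 2-fold higher, among them Rnf144a and Kidins220 directly beside it with 2.31 and 1.09. Those of Id1 had a median of 0.35, with 4 of 10 higher and 3 lower, and the gene after it, Bcl2l1, which encodes an inhibitor of apoptosis, had -1.13. Those of Atoh8 had a median of -0.27, with St3gal5 before it at 1.35. Around every member, neighbours went in both directions. For scale, 16.0% of all measured genes passed the 2-fold mark upward and 15.8% downward. Whether any of the neighbour counts exceeds these shares was not tested. Differences shared by a stretch of chromosome were not tested.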
